A study of Mus musculus with 2 samples.

Results

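Cells of the mouse cervix with many UMIs (unique molecular identifiers, counts of distinct RNA molecules) of the small proline-rich genes Sprr2d, Sprr2b and Sprr2f are described here across 2 single-cell libraries. The cells were chosen by measured values: at least 10 UMIs of Sprr2d, Sprr2b and Sprr2f together, fewer than 10 of Krt16 and Krt6b, fewer than 10 of Krt10 and Krtdap, fewer than 3 of Krt8 and Krt18, and 0 of the neutrophil genes Csf3r, Cxcr2 and Retnlg. A barcode entered if it had 200 or more genes and no more than 20% of its UMIs from mitochondrial genes. These limits selected 528 of 13981 cells, 506 of 4760 in the control library (10.6%, exact 95% interval 9.77% to 11.5%) and 22 of 9221 in the progesterone library (0.239%, 0.150% to 0.361%). The cells had been proposed as inflammatory squamous cells. They are called Sprr2-high squamous cells here because Il1b was lower and Il6 and Csf2 had 0 UMIs. Most chemokine and cytokine genes with enough UMIs were higher, as given further on.

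All mice were ovariectomised C57BL6/129 females aged 7 to 8 weeks that recovered for 2 weeks and were then studied over 15 days. Control mice had no hormone, and no vehicle treatment is named for them. Mice of the progesterone group had 100 µg of E2 per day in corn oil for 2 days by subcutaneous injection and then a 25 mg pellet that released progesterone over 21 days, about 1 mg per day. Each library pooled the cervices of 9 mice, taken below the transition zone and freed of vagina. With 1 library per group there is no replicate, so no test between groups was made. All intervals are exact, at 95%, and cover counting error only. The E2 injections, the pellet and the progesterone all differ between the groups, and their effects cannot be told apart.

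The lower cervix is lined by a stratified squamous epithelium, in which basal cells with Krt5 and Krt14 rest on a basement membrane and divide, and cells above them stop dividing and build a tough envelope. Small proline-rich proteins are substrates that transglutaminases crosslink into that envelope, and Sprr2 genes are induced in many epithelia by injury, infection and hormones. Stressed squamous epithelium also makes antimicrobial proteins that bind iron or bacterial cell walls, and chemokines that draw neutrophils.

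The negative limits set much of who is counted. Of 1022 control cells with at least 10 Sprr2 UMIs, 305 (29.8%) were left out for Krt8 and Krt18, 144 for Krt10 and Krtdap, 128 for Krt16 and Krt6b and 91 for neutrophil genes, with some cells left out for several. Of 87 such progesterone cells, 62 (71.3%) were left out for Krt8 and Krt18. Among cells with at least 5 UMIs of Krt5 and Krt14, 453 of 3447 (13.1%, 12% to 14.3%) were Sprr2-high squamous cells in the control and 19 of 6260 (0.304%, 0.183% to 0.474%) in the progesterone library. The comparison set was the 2021 control cells with at least 5 Krt5 and Krt14 UMIs and at most 1 UMI of Sprr2d, Sprr2b and Sprr2f. Those cells were not held to the limits on Krt16, Krt6b, Krt10, Krtdap, Krt8, Krt18 and neutrophil genes. The 1291 of them that also met these limits are called the gated comparison cells and are given beside many of the results. A result without them may also depend on the difference.

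The control Sprr2-high squamous cells had a median of 5810.5 UMIs and 1808 genes, and the comparison cells a median of 4021 UMIs. Scrublet called 15 of the 506 (2.96%) and 82 of the 2021 comparison cells (4.06%) doublets, and none was removed. In all, 19 barcodes occurred in both libraries, 0 of them among the control Sprr2-high squamous cells. Of the 506 cells, 453 (89.5%) had at least 5 UMIs of Krt5 and Krt14, with a median of 30 against 42 in the comparison cells. Summed CPM (UMIs per 1000000 UMIs of the group) of T and NK cell markers was 13.5 against 26.8 in the comparison cells, of fibroblast markers 4.49 against 14.2, of endothelial markers 2.76 against 2.43 and of smooth muscle markers 4.83 against 5.6. These 4 sums were low in both sets. Other sums were higher in the Sprr2-high squamous cells: macrophage markers were at 204 against 94.2 CPM (97.9 in the gated comparison cells), of which the receptor Cd14 made up 179 against 50.6 and the macrophage complement gene C1qa 4.14 against 8.67. Neutrophil markers were at 1292 against 867 CPM and hemoglobin genes at 2301 against 1239 CPM, and dendritic cell markers were lower, at 28.3 against 111 CPM. The part of RNA from these cells in the results was not tested.

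Sprr2 genes lie side by side on mouse chromosome 3, and their sequence is shown because 3 of them chose the cells and another, Sprr2e, followed them. By GENCODE release M21 on GRCm38 the Sprr2d gene spans chromosome 3, 92339140 to 92340873, and Sprr2f 92365187 to 92366442; Lcn2 lies on chromosome 2, 32384633 to 32388252, Ltf on chromosome 9, 111019271 to 111042767, and Cxcl5 on chromosome 5, 90759360 to 90761624. The windows are the 250 bases before the RefSeq gene start in GRCm38.p6, on the plus strand, at chr3:92338890-92339139 for Sprr2d, chr3:92364937-92365186 for Sprr2f and chr3:92351893-92352142 for Sprr2e. Capitals mark TGANTCA, the core bound by AP-1 factors (in each case TGAGTCA), and ATTTGCAT, the octamer bound by POU factors.
Sprr2d: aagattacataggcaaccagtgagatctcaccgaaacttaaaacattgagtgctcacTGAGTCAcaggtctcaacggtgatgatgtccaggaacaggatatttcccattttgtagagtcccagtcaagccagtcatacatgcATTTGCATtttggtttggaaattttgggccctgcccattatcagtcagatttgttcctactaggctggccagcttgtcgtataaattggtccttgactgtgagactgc
Sprr2f: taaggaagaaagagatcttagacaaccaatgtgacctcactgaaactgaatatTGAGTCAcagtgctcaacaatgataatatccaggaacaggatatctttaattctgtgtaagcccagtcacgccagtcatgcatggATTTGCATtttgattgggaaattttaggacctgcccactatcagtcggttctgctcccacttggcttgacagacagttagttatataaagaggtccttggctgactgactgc
Sprr2e: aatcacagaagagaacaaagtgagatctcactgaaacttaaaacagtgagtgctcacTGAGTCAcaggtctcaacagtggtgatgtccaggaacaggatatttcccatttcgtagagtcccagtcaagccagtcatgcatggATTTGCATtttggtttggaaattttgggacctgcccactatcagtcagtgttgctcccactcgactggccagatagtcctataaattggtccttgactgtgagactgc
Searched on both strands, TGANTCA was present in the windows of 5 of 6 Sprr2 genes (Sprr2b, Sprr2d, Sprr2e, Sprr2f and Sprr2h, not Sprr2a3) and in 6.75% of 32851 RefSeq windows of this length. ATTTGCAT was in the same 5 of 6 and in 1.6% of all windows. The C/EBP letters TTGCNNAA were in 0 of the 6 Sprr2 windows and in those of Lcn2, Ltf and C3 among 8 other genes searched, against 9.56% of all. The RefSeq windows of Sprr2b, Lcn2, Ltf, Clca3b, Pglyrp1 and Ifitm1 overlap the GENCODE gene, which starts further upstream. Part or all of those windows may thus be transcribed, and they are not printed. Neighbouring Sprr2 genes are copies of each other, so their matches are not separate observations, and a match in letters is a description and not a binding site.

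The values that chose the cells were as follows. Among the 506 control cells the sum of Sprr2d, Sprr2b and Sprr2f had a median of 38 UMIs, quartiles of 19 and 86 and a highest value of 1086. Sprr2f had the widest reach, with a median of 27 UMIs and at least 1 UMI in 97.6% of cells. Sprr2d had a median of 6 and was found in 70.4%, but reached 769 UMIs in a cell. Sprr2b was found in only 23.7% of cells, and the 25 highest cells held 71.3% of its UMIs. As levels, Sprr2f was at 7905 CPM against 31.9 in the comparison cells, Sprr2d at 4576 against 12.7 and Sprr2b at 573 against 1.16. Most of the selected cells were therefore chosen by Sprr2f, and a minority by very high Sprr2d.

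**Figure D1:**
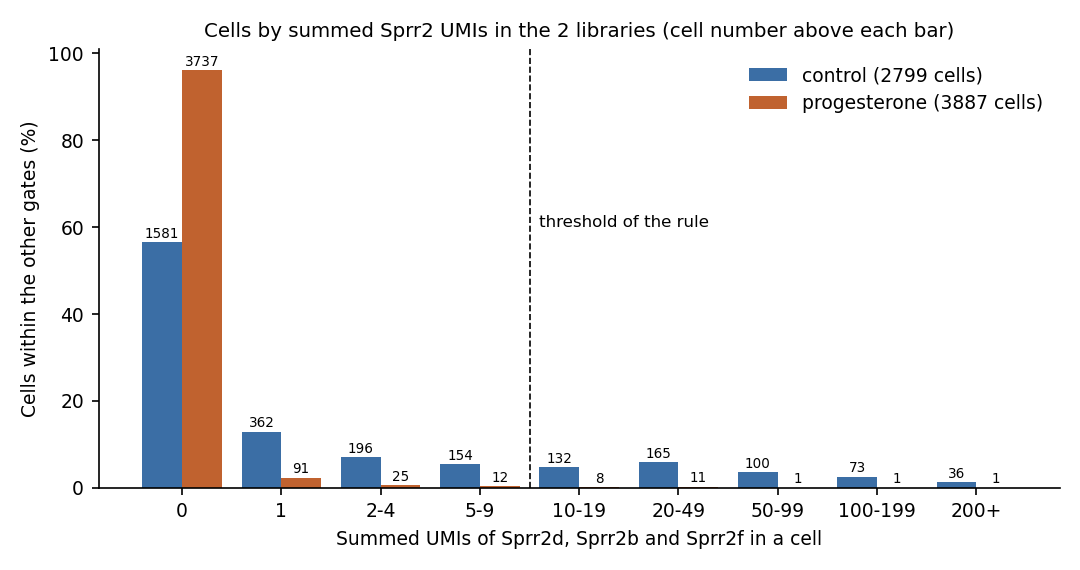
Share of cells (vertical axis, %) by the summed UMIs of Sprr2d, Sprr2b and Sprr2f (horizontal axis, bins, with the number of cells above each bar and the limit of 10 as a dashed line) among cells that met every other limit, for the control and the progesterone library. In the control 56.5% of 2799 cells held 0 such UMIs and 36 cells held 200 or more, while in the progesterone library 96.1% of 3887 cells held 0.

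The sums ran on without a gap across the limit of 10. Among control cells that met the other limits, 196 had 2 to 4 Sprr2 UMIs, 154 had 5 to 9, 132 had 10 to 19, 165 had 20 to 49, 100 had 50 to 99, 73 had at least 100 but under 200 and 36 had 200 or more. In these sums the limit of 10 thus cut a continuous range. Whether the cells form a separate type was not tested. Just outside the limit, 72 cells with 7 to 9 UMIs had 1184 CPM of Lcn2, 2567 of Ltf and 141 of Mki67. Just inside it, 50 cells with 10 to 12 UMIs had 722 CPM of Lcn2, 883 of Ltf and 60.9 of Mki67. With at least 5 Krt5 and Krt14 UMIs also required, the values were 727 against 677 CPM for Lcn2 (57 and 47 cells) and 1132 against 800.4 CPM for Ltf. In that population the wider bins of 5 to 9 and 10 to 19 UMIs had the opposite order, with Lcn2 at 687 and 858 CPM and Ltf at 681 and 1034 CPM, so the limit marked no step in either gene.

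Other family members that the rule did not name differed in how far they followed. Sprr2e was at 103 CPM against 1.59, 64.7-fold higher (38.6 to 117). Sprr2a3 was at 433 CPM against 178, but 40.6% of the 90-base stretches of its transcripts also occur in other Sprr2 transcripts, so its count is uncertain. For Sprr2d and Sprr2f that share was 0. Sprr1a, another envelope precursor, was at 1689 CPM against 1015 in the comparison cells and 421 in the gated comparison cells. Sprr1b and Sprr3, of later layers, had 0 UMIs in the Sprr2-high squamous cells, which allows up to 1.04 CPM each. The comparison cells held 111 and 23 UMIs of them. Of 10 family genes with enough UMIs, genes of the rule included, 6 were at least 2-fold higher and 3 lower. Against the gated comparison cells 7 of 7 were higher and 0 lower, so neither Sprr1b nor Sprr3 counted as lower there.

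Across all genes with at least 20 UMIs in both sets together, 639 of 11224 (5.69%) were at least 2-fold higher in the Sprr2-high squamous cells and 1203 (10.7%) at least 2-fold lower. Against the gated comparison cells the counts were 641 of 10550 (6.08%) and 1092 (10.4%). The median log2 ratio over all genes was -0.04, and -0.11 against the gated cells. The cells were chosen and compared within the same library, so the counts below describe them and test nothing.

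Antimicrobial genes were mostly higher. Of 12 with enough UMIs, 10 were at least 2-fold higher and 0 at least 2-fold lower, with a median log2 ratio of 3.43 beside -0.04 for all genes, and all 12 were at least 2-fold higher than in the gated comparison cells. Lcn2, lipocalin-2, binds bacterial siderophores and so withholds iron. It had a median of 7 UMIs per cell with quartiles of 2 and 20 and a highest value of 432. Its level was 3498 CPM against 149, 23.4-fold higher (22.1 to 24.8). Ltf, lactotransferrin, binds iron itself, and was at 4900.4 CPM against 261, 18.8-fold higher (18.0 to 19.6) and 40.2-fold above the gated cells. Iron-withholding proteins were therefore the most abundant of the list.

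Pglyrp1, which binds bacterial peptidoglycan, was at 276 CPM against 12.8, 21.6-fold higher (17.8 to 26.3). The complement genes C3, the central component, and Cfb, of the alternative pathway, were at 256 against 21.7 CPM and 31.8 against 2.54 CPM. Duox2 and its maturation factor Duoxa2, which together make hydrogen peroxide at the cell surface, were low at 8.63 against 0.85 CPM and 7.94 against 0.32 CPM. The beta-defensin Defb1 was at 69.4 CPM against 8.98. S100a8 and S100a9, the subunits of calprotectin, differed less, at 512 against 235 CPM and 738 against 395 CPM. Without 28 cells with much Psca, described further on, they were at 246 and 297 CPM, so that S100a9 was then lower than in the comparison cells. In the gated comparison cells they were at 71.5 and 117 CPM. Saa2, Saa3, Defb3, Reg3g and Nos2 had 0 UMIs in both sets. The list thus held strongly higher iron, complement and peptidoglycan genes and Defb1, with Duox2 and Duoxa2 higher at low levels. S100a8 and S100a9 differed less, and other genes were not seen at all.

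To set detection apart from depth, each cell was thinned to 2000 UMIs, which left out 26 of 506 Sprr2-high squamous and 501 of 2021 comparison cells. Lcn2 was then found in 73.8% of cells against 13.9% (unthinned 82.8% and 17.7%), Ltf in 63.3% against 11.3% (74.1% and 19%) and Cxcl5 in 35.6% against 4.93% (46.8% and 7.27%). In 61 control fibroblasts, with a median of 858 UMIs, Lcn2 was found unthinned in 0 cells, which allows up to 4.92%, Cxcl5 in 3.28% and Ltf in 13.1%. Only 5 of those fibroblasts were deep enough to thin. The thinned shares in the Sprr2-high squamous cells were above the fibroblast shares for all 3 genes, with the depths unequal, and the Ltf share in the comparison cells was not.

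Signals to other cells were led by Cxcl5 and the IL-36 family. Of 16 chemokine and cytokine genes, 10 were at least 2-fold higher and 1 lower, with a median log2 ratio of 1.46, and 13 and 0 against the gated cells. Cxcl5, a neutrophil-attracting chemokine, was at 960.3 CPM against 67.4, 14.2-fold higher (13.1 to 15.5). It was uneven: 46.8% of cells had a UMI, the 90th percentile was 18 UMIs and the highest 104. Il1f6, which encodes IL-36 alpha, was at 73.6 CPM against 1.48, 49.7-fold higher (29.0 to 92.5). Il1f9, for IL-36 gamma, was at 148 against 32.8 CPM, and the alarmin Il33 at 458 against 185 CPM. The related neutrophil chemokines Cxcl1 and Cxcl3 were much lower in level, at 15.5 against 5.39 CPM and 19 against 6.66 CPM. Cxcl2 was at 29.0 against 33.5 CPM.

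Other inflammatory genes went the opposite way or were missing. Il1b was 4.50-fold lower (3.21 to 6.49), at 12.4 CPM against 55.9, and 1.71-fold lower than in the gated comparison cells, which held 21.2 CPM. Il6 and Csf2 had 0 UMIs, and Tnf had 8. Of 22 genes of IL-17, IL-1 and NF-kB signalling, 6 were at least 2-fold higher and 3 at least 2-fold lower, with a median log2 ratio of 0.62. Against the gated cells 4 of 22 were higher and 2 lower, with a median of 0.54. Cebpd, a transcription factor of the acute response, was at 49.4 against 13.8 CPM, and Nfkbiz, an NF-kB cofactor, at 51.5 against 20.7 CPM. The decoy receptor Il1r2 was 4.09-fold lower, at 24.2 against 98.9 CPM. Il1r2 is also among the neutrophil markers used here, and the comparison cells were not held to the neutrophil limit. The part of that limit in this ratio was not tested. The word inflammatory therefore covers the antimicrobial, Cxcl5 and IL-36 genes here, and not Il1b, Il6 or Tnf.

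Interferon-linked and oxygen-linked genes were higher in part. Of 10 interferon genes, 7 were at least 2-fold higher and 0 lower, with a median log2 ratio of 1.44. That median was 0.32 over the cells with at least 5 Krt5 and Krt14 UMIs. Against the gated cells 5 of 9 were higher and 0 lower, with a median of 1.15. Ifitm3, a membrane protein that restricts virus entry, was at 6996 CPM against 2170.2, with medians of 35 and 4 UMIs per cell. Its relative Ifitm1 was 14.6-fold higher (13.9 to 15.4), at 2907 against 198 CPM, and was found in 87.0% of cells. The classical targets were much lower in level: Ifit1 was at 18.3 against 3.17 CPM and Isg15 at 35.6 against 11.1 CPM, and Cxcl10 had 1 UMI. Of 22 hypoxia and glycolysis genes, 6 were at least 2-fold higher and 1 lower, with a median log2 ratio of 0.58. Ndufa4l2, a mitochondrial protein induced in low oxygen, was at 155 against 64.1 CPM, 2.42-fold higher (2.13 to 2.74), and the oxygen sensor Egln3 at 71.1 against 19.8 CPM. Slc2a1, the glucose transporter, was 2.06-fold lower, and Hif1a, Ldha and Gapdh lay within 2-fold, at 279 against 367, 669 against 699.6 and 1646 against 1714 CPM. Early response genes, which also move when tissue is taken apart, were higher too: 4 of 12 by at least 2-fold and 0 lower. Fos was at 15.5 against 6.55 CPM. Against the gated cells 6 of 12 were higher and 0 lower. The part of tissue handling in these values was not tested.

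**Figure D2:**
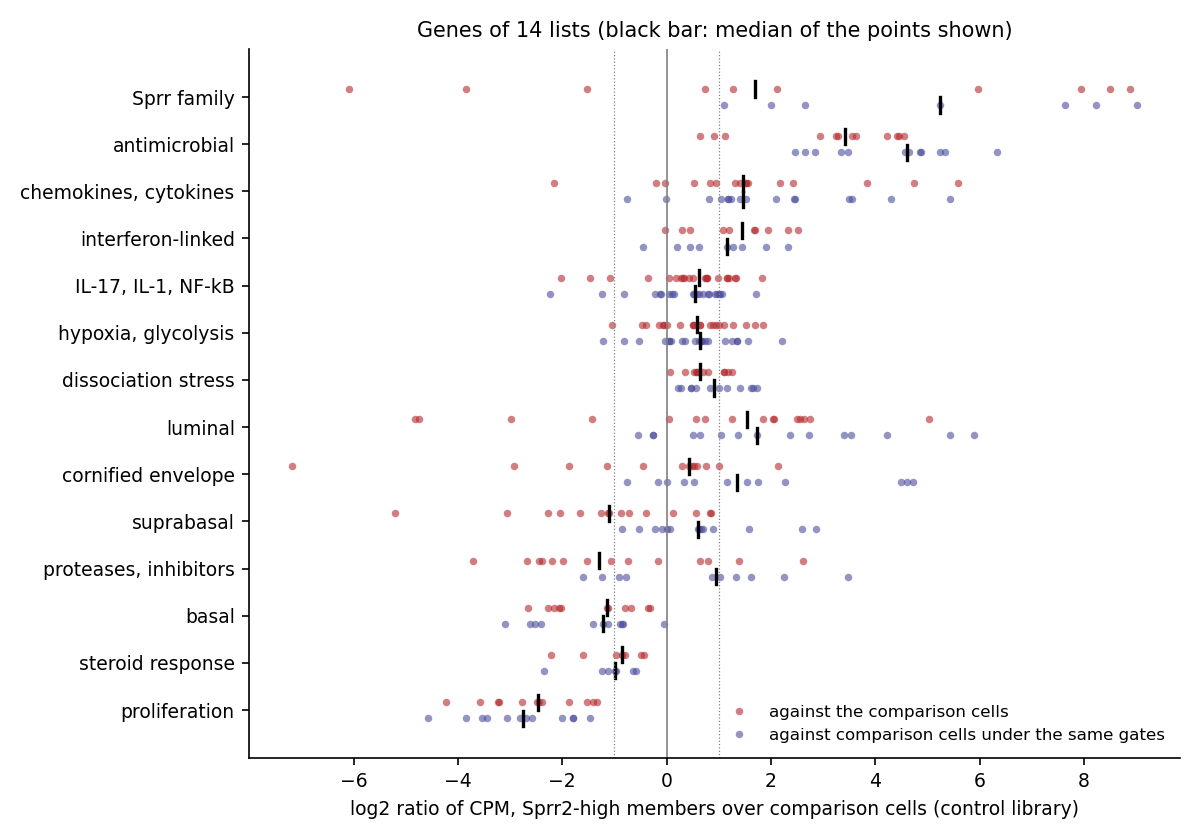
Log2 ratio (horizontal axis) of control Sprr2-high squamous cells over comparison cells for each gene of each list (vertical axis), points being genes with at least 20 UMIs (red against the comparison cells, blue against the gated comparison cells), black bars the list medians and dotted lines 2-fold. The antimicrobial genes sit to the right of 0 with a median of 3.43 and the proliferation genes to the left with a median of -2.46, while the suprabasal median moves from -1.11 to 0.61 when the comparison cells are held to the same limits.

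Cell-surface and luminal genes were also higher, although Krt8 and Krt18 were limited by the rule. Of 16 luminal genes, 9 were at least 2-fold higher and 4 at least 2-fold lower, with a median log2 ratio of 1.55, and 10 of 15 and 0 against the gated cells. The membrane mucins Muc4 and Muc1 were at 108 against 3.28 CPM and 77.0 against 11.4 CPM, for Muc4 33.0-fold higher (22.8 to 49.4). The tight junction gene Cldn7 was at 604 against 103 CPM, 5.88-fold higher (5.44 to 6.37), with a median of 2 UMIs. The adhesion gene Epcam was at 472 against 199.2 CPM and the epithelial transcription factor Elf3 at 153 against 37.3 CPM. Krt7, a keratin of simple and transitional epithelia, was at 554 against 335 CPM. Genes of gland secretion were not part of this: Tff1 was 30.1-fold lower and Agr2 29.4-fold lower, at 2.76 against 83.1 CPM and 1.73 against 50.7 CPM, but Tff1 was only 1.23-fold lower than in the gated cells, and Agr2 was not lower there.

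Genes of the basal layer were lower, and those of cell division most of all. Krt14 had a median of 17 UMIs against 30, and 6351 CPM against 25762, 4.06-fold lower; Krt5 had medians of 11 and 12, and both belong to the limits of the comparison set. Of 11 basal genes, 0 were at least 2-fold higher and 7 lower, with a median log2 ratio of -1.14 and, against the gated cells, -1.21. Genes that anchor cells to the basement membrane were among them: Col17a1 was at 43.9 against 212 CPM, Itgb4 at 32.8 against 148 CPM, Lamb3 at 13.8 against 87.7 CPM and Dst at 81.2 against 340.5 CPM. Trp63, the master regulator of stratified epithelium, was at 55.6 against 123 CPM. Krt15, Itga6, Dsg3 and Cdh3 were less than 2-fold lower. Col17a1, Itgb4, Lamb3 and Dst were thus further down than Trp63 and Krt15. This split did not hold for every basal gene, since Itga6 was less than 2-fold lower and Krt14 4.06-fold lower.

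All 12 proliferation genes were at least 2-fold lower, with a median log2 ratio of -2.46, and also against the gated cells, with -2.74. Mki67 was at 13.8 against 130 CPM, 9.40-fold lower (6.86 to 13.2), and Top2a at 10.0 against 121 CPM, 12.1-fold lower (8.35 to 18.1). The replication histones Hist1h1b, Hist1h2ap and Hist1h2ae were 21.9-fold, 29.1-fold and 12.1-fold lower. After thinning, Mki67 was found in 1.67% of Sprr2-high squamous and 13.3% of comparison cells. Receptors of the ovarian hormones were lower as well: Pgr, the progesterone receptor, was at 14.5 against 44.7 CPM, and Esr1, an oestrogen receptor, at 59.7 against 104 CPM.

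For differentiation genes the answer depended on the comparison cells. Of 15 suprabasal genes, 0 were at least 2-fold higher and 8 lower, with a median log2 ratio of -1.11, but against the gated comparison cells 3 of 14 were higher and 0 lower, with a median of 0.61. Krt13, the keratin of moist stratified epithelium, was at 1597 CPM against 1079 in the comparison cells and 535 in the gated cells. Krt6a, a keratin of activated epidermis, was at 782 CPM against 3765 and 826. Of 13 cornified envelope genes, 2 were higher and 4 lower with a median of 0.44, and against the gated cells 7 of 12 and 0 with a median of 1.35. The protease inhibitor list also changed sign, from -1.29 to 0.95, with Spink12 at 767 CPM against 125 and 162. Lce3f, a late cornified envelope gene, had 0 UMIs against 1023, at least 104-fold lower, but the gated cells held only 2. Lce3b (1 UMI) and Mt4 (1 UMI), Lce3a (2 UMIs) and Dsg1b (6 UMIs) were the other late genes among the lowest, and against the gated cells Lce3a was 1.45-fold, Dsg1b 2.71-fold and Mt4 8.70-fold lower, while Lce3b was not lower.

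**Figure D3:**
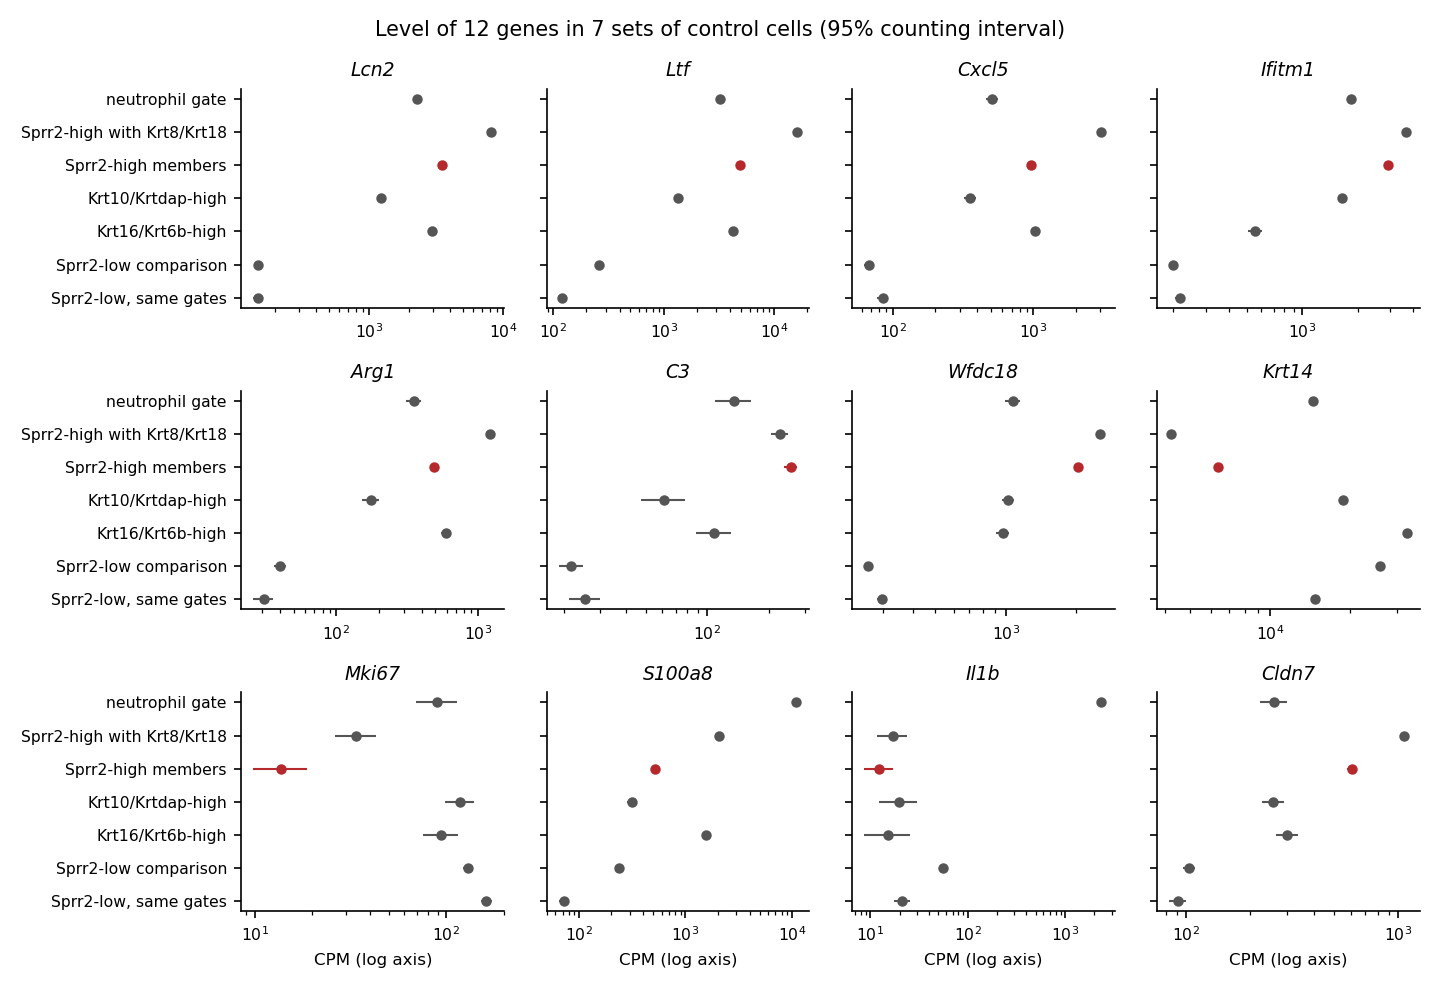
Level (CPM, log axis, with 95% counting intervals) of 12 genes in 7 sets of control cells: the Sprr2-high squamous cells (red), the comparison cells, the gated comparison cells, 3 related keratin gates and the neutrophil gate. Lcn2 stands at 3498 CPM in the Sprr2-high squamous cells, 149 in the comparison cells and 8165 in cells with both Sprr2 and Krt8 or Krt18.

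Levels of several of these genes were also set out by the amount of Sprr2. Many were named because they differed between cells with at least 10 and at most 1 Sprr2 UMIs. The ends of the range therefore repeat that choice and test nothing. Control cells with at least 5 Krt5 and Krt14 UMIs that met the other limits were binned by their Sprr2 sum, with 1291, 176, 134, 121, 152, 92 and 88 cells from 0 or 1 UMI up to 100 or more. Lcn2 was at 148, 329.6, 687, 858, 1211, 2852 and 5673 CPM from the lowest to the highest bin. Ltf was at 122, 272, 681, 1034, 1494, 3470.0 and 6414 CPM, and Ifitm1 went from 217 to 4943 CPM. Cxcl5 did not rise at each step, at 84.7, 159, 110, 281, 355, 833 and 1320 CPM. Mki67 was at 162, 218, 163, 51.8, 9.64, 0 and 1.5 CPM. The summed proliferation list was at 826, 1021, 777, 329, 108, 78.5 and 49.4 CPM, so that its large drop lay between 5 to 9 and 20 to 49 Sprr2 UMIs. Krt14 went from 14704 to 3758 CPM and Ndufa4l2 from 71.3 to 219 CPM. Median depth rose as well, from 3515 to 7538 UMIs per cell, and its part in these levels was not tested.

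**Figure D4:**
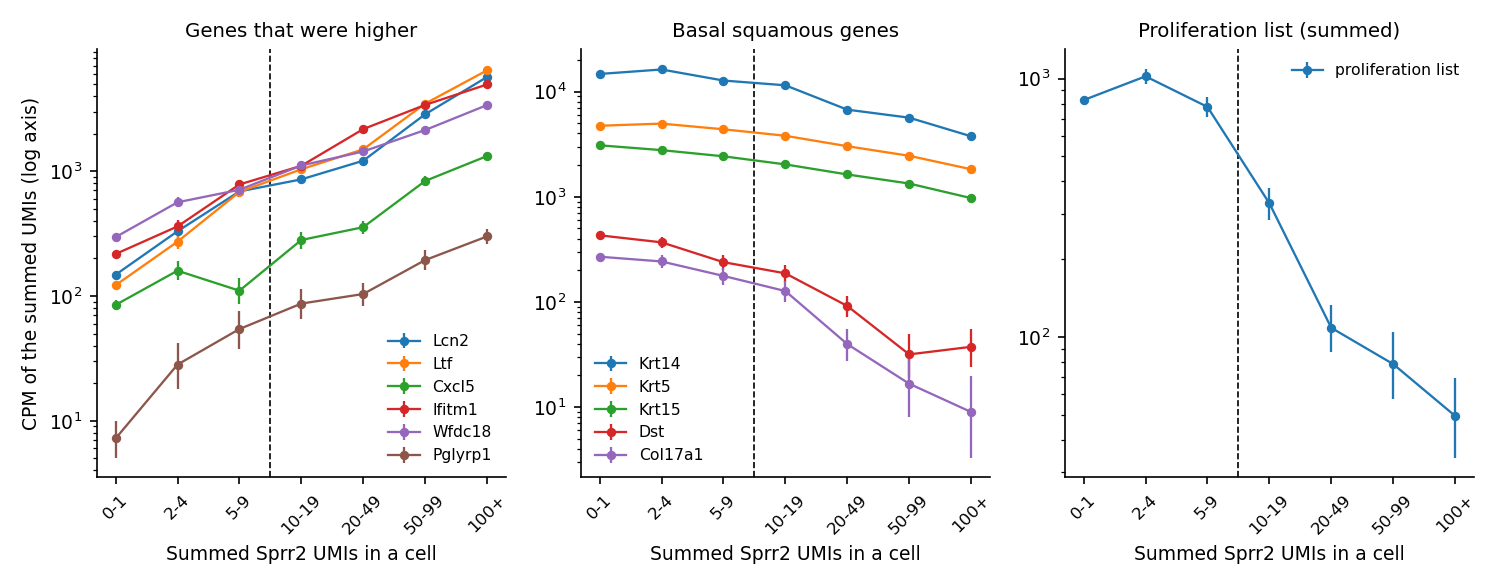
Level (CPM, log axis) of 6 genes that were higher, 5 basal genes and the summed proliferation list across bins of summed Sprr2d, Sprr2b and Sprr2f UMIs in control cells with at least 5 Krt5 and Krt14 UMIs; bars are exact Poisson intervals and the dashed line is the limit of 10. Lcn2 goes from 148 to 5673 CPM while the proliferation list goes from 826 to 49.4 CPM.

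Ranked over all 3447 control cells with at least 5 Krt5 and Krt14 UMIs, the genes most like the Sprr2 sum per 10000 UMIs were Ifitm1 (Spearman rho 0.59), Lcn2 (0.57), Wfdc18 (0.56), Ltf (0.54), Cldn7 (0.51), Pdzk1ip1 (0.51), Plet1 (0.49) and Pglyrp1 (0.47), out of 4057 genes with at least 500 UMIs. The least like were S100a6 (-0.35), Apoe (-0.33), Dst (-0.33) and Col17a1 (-0.26). The median over the 4057 genes was 0.05 and their 5th and 95th percentiles were -0.07 and 0.19. All cells share the library, and each cell's depth enters both ranks. Wfdc18, a small secreted protein of the whey acidic family, was at 2034 CPM against 258 in the comparison cells.

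The 506 cells were not alike, and the largest fold changes came from few of them. The platelet basic protein gene Ppbp was 106-fold higher (66.6 to 180.5), but 35 cells held all its UMIs and the 25 highest held 98.3% of them. The 25 highest cells also held 100% of the UMIs of Clca3b, a calcium-activated chloride channel regulator, 92.2% of those of the membrane protease Prss27, 91.8% of those of Psca, a surface antigen of transitional and other luminal epithelia, and 98.1% of those of the envelope gene Cnfn. For Lcn2 that share was 37.7%, for Cxcl5 45.8%, for Ltf 41.3% and for Ifitm1 24.2%. Of the 25 cells highest in Psca, 19 were among the 25 highest in Prss27 and 17 among the 25 highest in Ppbp.

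A subset of 28 cells with at least 10 Psca UMIs, picked once the values were known and so given only as a description, held most of these UMIs. It had a median of 1.5 Krt5 and Krt14 UMIs against 31.5 in the other 478 cells, a median Sprr2 sum of 226.5 against 35.5, similar median depth (5398 and 5821 UMIs) and 0 called doublets. Psca was at 15115 CPM against 67.4, Ppbp at 3394 against 7.69, Prss27 at 2738 against 16.1 and Cnfn at 3376 against 9.16. S100a8 was at 4892 against 246 CPM and S100a9 at 7979 against 297 CPM. Trp63 had 0 UMIs in the 28 cells and 59.0 CPM in the others, and Krt14 was at 1077 against 6672 CPM. The uroplakins Upk1b and Upk3a, which mark bladder urothelium, had 0 UMIs in the 28 cells. Not every envelope gene was higher: Sprr1a was at 1360 against 1709 CPM, and Lce3f had 0 UMIs in both.

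Lcn2, Ltf and Cxcl5 were higher in the subset as well, at 17992 against 2616, 31874 against 3258 and 5295 against 696 CPM, whereas Ifitm3, Il33, Ndufa4l2 and Wfdc18 were not, at 4976 against 7119, 277 against 469, 108 against 158 and 1697 against 2054 CPM. Without the 28 cells, Lcn2 was still 17.5-fold above the comparison cells (16.5 to 18.5), Ltf 12.5-fold, Cxcl5 10.3-fold (9.44 to 11.3), Pglyrp1 13.9-fold, Ifitm1 14.3-fold, Arg1 8.38-fold and Il1f6 37.4-fold. Ppbp was 4.04-fold higher (2.05 to 8.05) without them, Clca3b 1.04-fold (0.18 to 4.04), Prss27 1.30-fold (0.90 to 1.86) and S100a8 1.04-fold, while S100a9 was 1.33-fold lower and Psca 2.24-fold lower. Muc4 was 23.5-fold higher and Sprr2e 28.9-fold. Over all genes 545 were then at least 2-fold higher and 1213 lower. Relative to the comparison cells, the higher levels of Lcn2, Ltf, Cxcl5, Pglyrp1, Ifitm1 and Il1f6 therefore did not rest on the subset. Those of Ppbp, Clca3b, Prss27, S100a8, S100a9, Psca and Cnfn did for the most part. The gated comparison cells held 71.5 CPM of S100a8, 117 of S100a9, 15.6 of Psca, 3.2 of Prss27 and 2.6 of Ppbp. The other 478 cells stayed above these levels, at 246, 297, 67.4, 16.1 and 7.69 CPM. For Clca3b they did not, at 1.1 against 1.6 CPM.

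**Figure D5:**
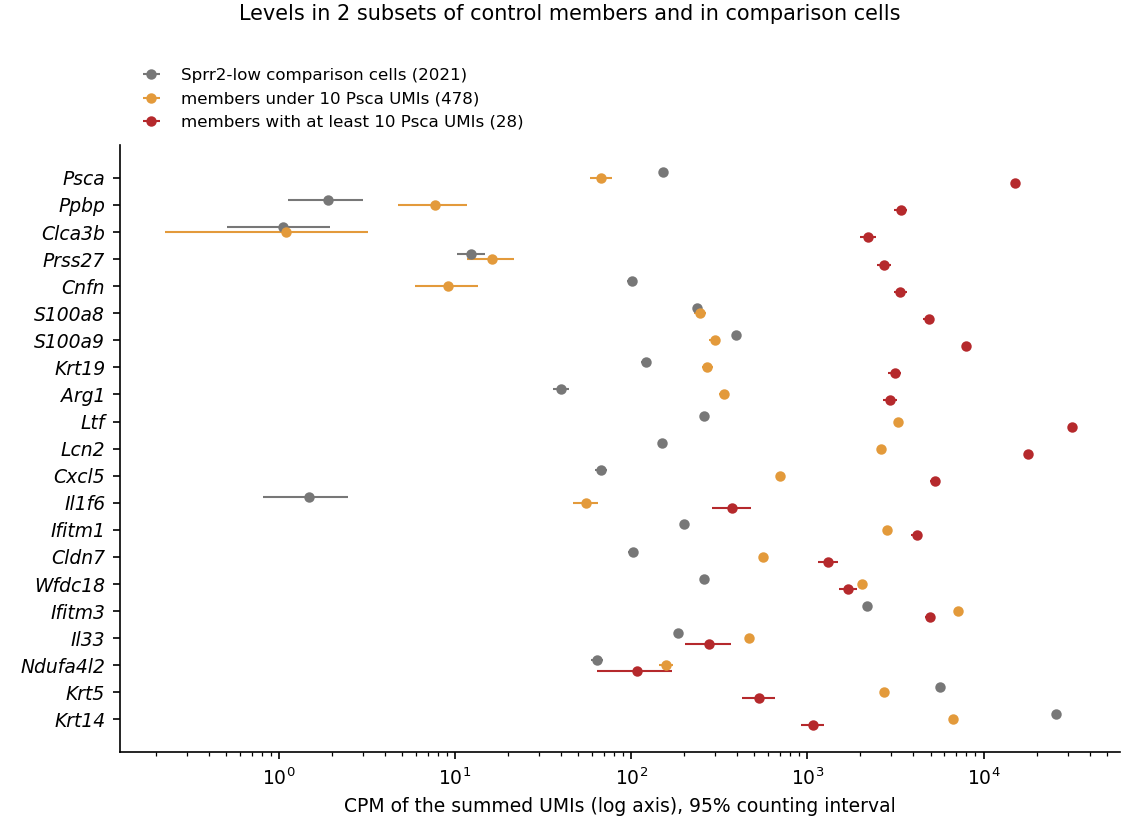
Level (CPM, log axis) of genes in the 28 control Sprr2-high squamous cells with at least 10 Psca UMIs and in the other 478, beside the 2021 comparison cells, with exact Poisson intervals. Ppbp stands at 3394 against 7.69 CPM, while Ifitm3 lies close, at 4976 against 7119 CPM.

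Split into 3 equal groups by Krt5 and Krt14 per 10000 UMIs (169, 169 and 168 cells), Lcn2 was at 6828, 2695 and 1310 CPM from the lowest to the highest group, Ltf at 11859, 2201 and 1291 CPM and Cxcl5 at 2262, 529 and 216 CPM. The lowest group held 26 of the 28 cells with at least 10 Psca UMIs, and without all 28 Lcn2 was at 4335, 2695 and 1257 CPM, Ltf at 7406, 2201 and 1176 CPM and Cxcl5 at 1570.4, 529 and 205 CPM, in the same order. The proliferation list went the other way, at 56.3, 98.3 and 221 CPM. Ndufa4l2 was at 138, 161 and 164 CPM, and did not follow the keratins. Hemoglobin RNA, which comes from red cells, also followed the groups, with Hbb-bs at 2938, 731 and 95.7 CPM. The 25 highest cells held 99.7% of the Hbb-bs UMIs, and none of those cells was among the 25 highest in Psca. Its part in the order of the groups was not tested.

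Lcn2, Ltf and Cxcl5 were often in the same cell. Of 480 thinned cells, 83 (17.3%) had none of the 3 genes, 102 (21.3%) had 1, 158 (32.9%) had 2 and 137 (28.5%) had all 3. Ltf was found in 75.4% (70.6% to 79.8%) of the 354 cells with Lcn2 and in 29.4% (21.6% to 38.1%) of the 126 without. Cxcl5 was found in 43.8% and 12.7%. Ndufa4l2 was found in 19.5% and 20.6%, so that this gene, named as a marker of the cells, was spread evenly over cells with and without Lcn2.

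S100a8, S100a9 and Lcn2 are also genes of neutrophils, so neutrophil markers are given beside them. The 12 neutrophil markers considered summed to 1292 CPM in the Sprr2-high squamous cells, 867 in the comparison cells and 325 in the gated cells, against 35761 in the neutrophil gate of the same library. Lcn2 and Ltf were lower in that gate than in the Sprr2-high squamous cells, at 2269 and 3232 CPM against 3498 and 4900.4, while S100a8 was higher, at 11024 against 512 CPM. Cells of the neutrophil gate also carried keratin RNA, with Krt14 at 14494 CPM. Of the 12, 1 was at least 2-fold higher and 10 lower than in the comparison cells. Csf3r, Cxcr2 and Retnlg, which are among the 12, were at 0 by the rule, to which the comparison cells were not held. Against the gated comparison cells, which are held to that rule too, 2 of 7 were higher and 2 lower. Hemoglobin markers summed to 2301, 1239 and 1597 CPM. Leaving out all cells with 2 or more UMIs of hemoglobin genes or of S100a8 and S100a9, chosen after seeing the data, kept 371 of 506 and 1714 of 2021 cells. The median log2 ratio of the antimicrobial list stayed at 3.01 or above under that and every other setting tried. That of the cornified envelope list was -0.84 without those cells and -0.79 without the 28 cells with at least 10 Psca UMIs.

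Sprr2 was not confined to these cells, and 3 related control gates were compared. Of 170 cells with high Krt16 and Krt6b, the keratins of activated epidermis, 35 (20.6%) had at least 10 Sprr2 UMIs, and of 138 with high Krt10 and Krtdap, of dry differentiation, 67 (48.6%). Cells with high Krt16 and Krt6b had Lcn2, Ltf and Cxcl5 at like levels, 2926, 4200.2 and 1020 CPM. They differed by Ifitm1, 5.22-fold higher (4.79 to 5.71) in the Sprr2-high squamous cells, by Ifitm3 (3.6-fold) and by Mki67, 6.81-fold lower. Against the cells with high Krt10 and Krtdap, Ltf was 3.66-fold, Lcn2 2.87-fold and C3 4.18-fold higher and Mki67 8.49-fold lower. The 278 cells with Sprr2 and at least 3 Krt8 and Krt18 UMIs had more of the defence genes than the Sprr2-high squamous cells: Lcn2 was at 8165 CPM, Ltf at 16047 and Cxcl5 at 3030.0. They also had more Tff1 (89.8-fold), Muc5b (42.0-fold) and Psca (3.91-fold) and less Trp63 (2.19-fold), Ndufa4l2 (1.97-fold) and Krt14 (1.5-fold). High Lcn2, Ltf and Cxcl5 thus also occurred in gates that the rule set aside, which the rule kept apart by keratins.

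In the progesterone library 22 cells met the limits, with a median of 7411.5 UMIs and 159465 in all. Sprr2f was at 4440 CPM there against 7905 in the control, Sprr2d at 1367 against 4576 and Sprr2b at 43.9 against 573. Lcn2 was at 4239 CPM in the 22 cells, but 1 cell with 11539 UMIs, not called a doublet, held 88.3% of its UMIs, and the same cell was the highest in Ltf, Cxcl5, Psca, Krt19, Prss27, Arg1, S100a8, Sprr2d and Sprr2f. In the 22 cells Ltf was at 3813 CPM, Cxcl5 at 2402 and Psca at 1605, against 4900.4, 960.3 and 931 in the control cells. In the other 21 cells Lcn2 was at 534 CPM (423 to 666), Ltf at 1237, Cxcl5 at 358, Psca at 155 and Sprr2d at 642. The 478 control cells without the subset of 28 had 2616 CPM of Lcn2, 3258 of Ltf, 696 of Cxcl5, 67.4 of Psca and 2846 of Sprr2d. The rules for leaving cells out were unlike: at least 10 Psca UMIs in the control, and the 1 cell highest in Lcn2 in the progesterone library. With those cells left out, Lcn2, Ltf, Cxcl5 and Sprr2d were lower in the progesterone library. Psca was at 155 against 67.4 CPM, but only the control cells were held below 10 Psca UMIs, so these 2 levels are not comparable. With all cells Lcn2, Cxcl5 and Psca were higher in the progesterone library.

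Genes that did not rest on that cell also stood lower. Wfdc18 was at 458 CPM (359 to 576) against 2034 in the control Sprr2-high squamous cells, Ifitm1 at 1154 against 2907, and Ndufa4l2 had 3 UMIs, 18.8 CPM (3.88 to 55.0) against 155. Il1f6 had 0 UMIs, which allows up to 18.8 CPM, against 73.6 in the control. Apoe, the lipid carrier, was higher, at 746 against 67.0 CPM. Krt14 and Krt5 were close in the 2 groups, at 7011 against 6351 and 2496 against 2600 CPM. Over all cells with at least 5 Krt5 and Krt14 UMIs, whatever their Sprr2, Sprr2f was at 2527 CPM in the control and 96.3 with progesterone, Lcn2 at 1291 and 115, Ltf at 2241 and 432, Ifitm1 at 1134 and 83.9 and Ndufa4l2 at 87.9 and 1.17. These are levels of 1 library each, so the spread between animals of a group is unknown.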

How the data were processed

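Per the file headers, the values deposited by the authors are UMI counts, not normalized, of 31053 genes in each cell. They list 5368 control barcodes with 21658684 UMIs and 10853 progesterone barcodes with 44811069 UMIs, each barcode with at least 500. Per the labels' protocols, cells were released with a cold protease and sequenced with a 3′ droplet kit and a 90-base cDNA read. Cell Ranger 3.0.2 and the build mm10 are named per the submitters' processing notes; the settings of alignment and counting, and how empty droplets were removed, are not given in the sources used here.

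The members and the gene lists were chosen with earlier results of these data known. Doublets were scored with Scrublet in scanpy 1.11.5, marking the highest scores at a rate that grows with the number of cells in the library (181 control, 680 progesterone), and kept. UMIs were summed over the cells of a set and scaled to 1000000 (CPM). Intervals are exact at 95%: conditional binomial for ratios, Poisson for levels and Clopper-Pearson for shares. Log2 ratios were computed after adding 0.5 to each sum, sums of 0 included. A gene with at least 20 UMIs over both sets counted as higher or lower at 2-fold. A count of 0 was set to 3 counts for a bound, which is not the end of one of the exact intervals. No test was made, since each group is 1 library.

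Besides the lists, the genes named were the 12 highest and 12 lowest by the interval bound nearest to 1, with at least 100 UMIs and 50 CPM where higher, leaving out genes of the rule, and the 8 highest and 4 lowest Spearman coefficients. Of the 31053 gene identifiers, 30934 were matched to GENCODE M21. Upstream sequences are from RefSeq, GRCm38.p6. Alternatives changed the limits of the members and of the comparison cells, the cell and count filters, doublets and scaling. Python 3.11.15, numpy 2.4.6, scipy 1.17.1 and pandas 2.3.3 were used, and the ratio code was checked on simulated data.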

Additional observations from a re-analysis of the deposited data

How the results depend on the processing

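The share of Sprr2-high squamous cells in the control library, 10.6%, was 13.9% with a limit of 5 Sprr2 UMIs, 7.86% with 20 and 12.1% with 20 per 10000 UMIs. It was 12.5% with 500 genes or more and a mitochondrial limit of 10%, 13.7% without the limits on Krt16, Krt6b, Krt10 and Krtdap, 17.1% without those on Krt8, Krt18 and neutrophil genes, and 9.52% when 5 Krt5 and Krt14 UMIs were also required. In the progesterone library, 0.239% became 0.369% with 5 Sprr2 UMIs, 0.390% with 20 per 10000 and 0.857% without the Krt8, Krt18 and neutrophil limits, so it was lower than in the control under each. With no minimum of UMIs per gene, 1732 genes were higher and 2202 lower. Some of the alternatives were chosen after seeing the data. Among these, cells with hemoglobin or S100a8 and S100a9 UMIs, or barcodes of both libraries, were left out. The rest of these left out members with few Krt5 and Krt14 UMIs, or with at least 10 Psca UMIs.

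Log2 ratios changed sign in these cases: against the gated comparison cells, to 0.61 for the suprabasal list, 0.95 for the protease inhibitor list, 0.79 for Lce3b and 1.08 for Agr2, and, without the Krt8, Krt18 and neutrophil limits, to 0.34 for Tff1. Those gated cells lack the cells with many differentiation or luminal keratin UMIs. The cause was not tested. The cornified envelope median, 0.44, ranged from -0.84 to 1.35, and was below 0 without the cells with hemoglobin or S100a8 and S100a9 UMIs, without those with at least 10 Psca UMIs (-0.79) and with at least 5 Krt5 and Krt14 UMIs required (-0.78). Of the 24 genes named by size, 24 kept their direction under 14 of the 16 settings. This was 23 without the Krt8, Krt18 and neutrophil limits and 22 against the gated cells. Direction alone does not mean that a gene stayed 2-fold. Against the gated cells 20 did, and without members with at least 10 Psca UMIs 22 did. It was 23 without the Krt8, Krt18 and neutrophil limits, and 23 with at least 5 Krt5 and Krt14 UMIs required. No paired analysis was possible because each group is 1 library. Depth limits genes with few UMIs, such as Duox2 and Il1a, and the 22 progesterone cells.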
